A study of Rattus norvegicus with 6 samples.

Results

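MHC class II molecules were examined through the 21 probe sets, of 8799 on the array, that the platform annotation assigns to 1 of 8 listed genes: RT1-Ba, RT1-Bb, RT1-Da, RT1-Db1, RT1-DMa, RT1-DMb, Cd74 and Ciita. Of the 8 genes, 7 had a probe set (4736 genes were named on the whole array), and Ciita, the master transactivator of class II genes, had none named here. RNA came from the dorsolateral prostate of male ACI rats, an inbred strain, labelled as 18 months old. The 3 rats of the high corn oil group had eaten a diet high in corn oil for 18 months, and the 3 rats of the low corn oil group one low in corn oil. Each array came from 1 rat, a part of whose prostate was used, and the labels give no genetic change or further agent in either group. The array labelled high corn oil replicate 3 was placed by its title and source name, although the description field of that sample mentions the low diet instead. Values with that array counted as low are given with the alternatives in the closing section.

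Class II molecules display peptides from the endocytic pathway to CD4 T cells. In the rat the antigen-binding molecules are the RT1.B pair, an alpha chain from RT1-Ba with a beta chain from RT1-Bb, and the RT1.D pair from RT1-Da and RT1-Db1. The invariant chain, encoded by Cd74, fills the groove during assembly and steers the complex to endosomes, and the DM dimer, encoded by RT1-DMa and RT1-DMb, then exchanges its remnant for antigenic peptide. Macrophages, dendritic cells and B cells carry these molecules at rest, and interferon-gamma can induce them in epithelium and stroma through Ciita.

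The 6 RT1 genes lie together on chromosome 20 of the GRCr8 rat annotation, in the order RT1-Da, RT1-Db1, RT1-Ba, RT1-Bb, RT1-DMb and RT1-DMa along the chromosome, with RT1-DOb between RT1-Bb and RT1-DMb and RT1-DOa beyond RT1-DMa. Cd74 is on chromosome 18. Class II promoters are known for an upstream X box, bound by the RFX complex, and a Y box, an inverted CCAAT element bound by NF-Y, on which the Ciita protein assembles. The promoters of these genes are shown because their products were measured together and class II promoters are known for this layout. RefSeq promoter windows (GRCr8) were found for 6 members, namely RT1-Ba, RT1-Bb, RT1-Da, RT1-Db1, RT1-DMa and Cd74. Each sequence runs 5′ to 3′ on the gene's own strand. Capitals mark a match to GNNACNG, a loose form of the X box core, and a match to ATTGG, the Y box core.
RT1-Ba, chr20:4576969-4577030, plus strand: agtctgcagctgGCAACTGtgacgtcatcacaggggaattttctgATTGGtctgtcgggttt
RT1-Bb, chr20:4604163-4604223, minus strand: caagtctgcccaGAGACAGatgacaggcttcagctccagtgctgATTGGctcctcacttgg
RT1-Da, chr20:4515321-4515382, plus strand: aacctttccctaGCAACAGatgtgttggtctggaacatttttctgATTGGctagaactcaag
RT1-Db1, chr20:4560226-4560286, minus strand: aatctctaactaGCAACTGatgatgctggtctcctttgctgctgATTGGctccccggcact
RT1-DMa, chr20:4712383-4712444, minus strand: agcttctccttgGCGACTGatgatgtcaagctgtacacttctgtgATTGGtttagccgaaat

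In all 5 of these stretches the GNNACNG match stood upstream of ATTGG with 25 bases (RT1-Bb, RT1-Db1) or 26 bases (RT1-Ba, RT1-Da, RT1-DMa) between them. The search covered the 250 bases before each gene's start, allowed 10 to 30 bases between the motifs, and was worded after these sequences had been read. ATTGG on either strand was in 34.0% of all 33469 promoters of the same length. The pair in this order was in 1.70% of them on the gene's strand and in 3.15% on either strand, and the pair with a gap of 25 or 26 bases in 0.173%. The Cd74 window held 1 CCAAT on the gene's strand and no match to the pair on either strand. A match describes letters in a window and is not evidence of binding.

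The labelled tissue was checked against its markers first. Msmb and Pbsn, secretory genes of the prostate epithelium, reached 33652 to 73854 and 19851 to 99574 intensity units in high corn oil arrays, and 66835 to 80234 and 78113 to 82039 in low corn oil arrays. Scgb2a1, a prostatein subunit gene known mainly from the ventral lobe, was also bright but uneven, at 12779, 45920 and 53290 in high corn oil arrays and 61356, 22675 and 42862 in low corn oil arrays. High corn oil replicate 1 was therefore unlike replicates 2 and 3 in both Pbsn (99574 against 19851 and 21926) and Scgb2a1. The BioB, BioC and BioD spike-in controls, bacterial transcripts added to the sample, split the arrays into 3 of higher signal (high corn oil replicate 1, low corn oil replicates 1 and 2) and 3 of lower signal (high corn oil replicates 2 and 3, low corn oil replicate 3), and the class II differences within each set are given after the single genes. The log2 ratio of the 3' to the 5' GAPDH probe set, a sign of RNA quality, came to 0.23, 0.12 and 0.0087 for high corn oil replicates 1, 2 and 3 and to 0.29, 0.24 and -0.049 for low corn oil replicates 1, 2 and 3, with the 3 highest values on the arrays of higher spike-in signal. The median intensity of a high corn oil array was 573, 710 or 646 and that of a low corn oil array 604, 591 or 632. In whole tissue, fewer class II-bearing cells and less class II RNA per cell cannot be told apart.

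Class II RNA was mostly lower in the prostates of rats on the high corn oil diet, but no probe set passed the test. Of the 21 probe sets, 17 reached the minimum mean of 343 units over the 6 arrays and were tested with limma on log2(intensity + 156.1), a scale that understates the change of dim genes. Of these, 16 were lower and 1 was higher under the high diet, while 46.1% of all 5244 tested probe sets were lower. The median log2 difference, high minus low corn oil, was -0.45 over the 17, against 0.03 over all tested probe sets. In 7 of the 17, all 3 high corn oil values lay below all 3 low corn oil values, where 6.71% of all tested probe sets did so, and in 0 the groups separated the other way (8.83% of all). At an unadjusted p under 0.05 there were 6 lower class II probe sets (4.81% of all tested were lower at that level) and 0 higher (5.15% of all). After Benjamini-Hochberg adjustment over all 5244, limma called 0 class II probe sets and 0 (0.0%) of all, with a smallest adjusted p of 0.462. Since several probe sets read the same gene, the 17 are not 17 independent measurements.

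**Figure D1:**
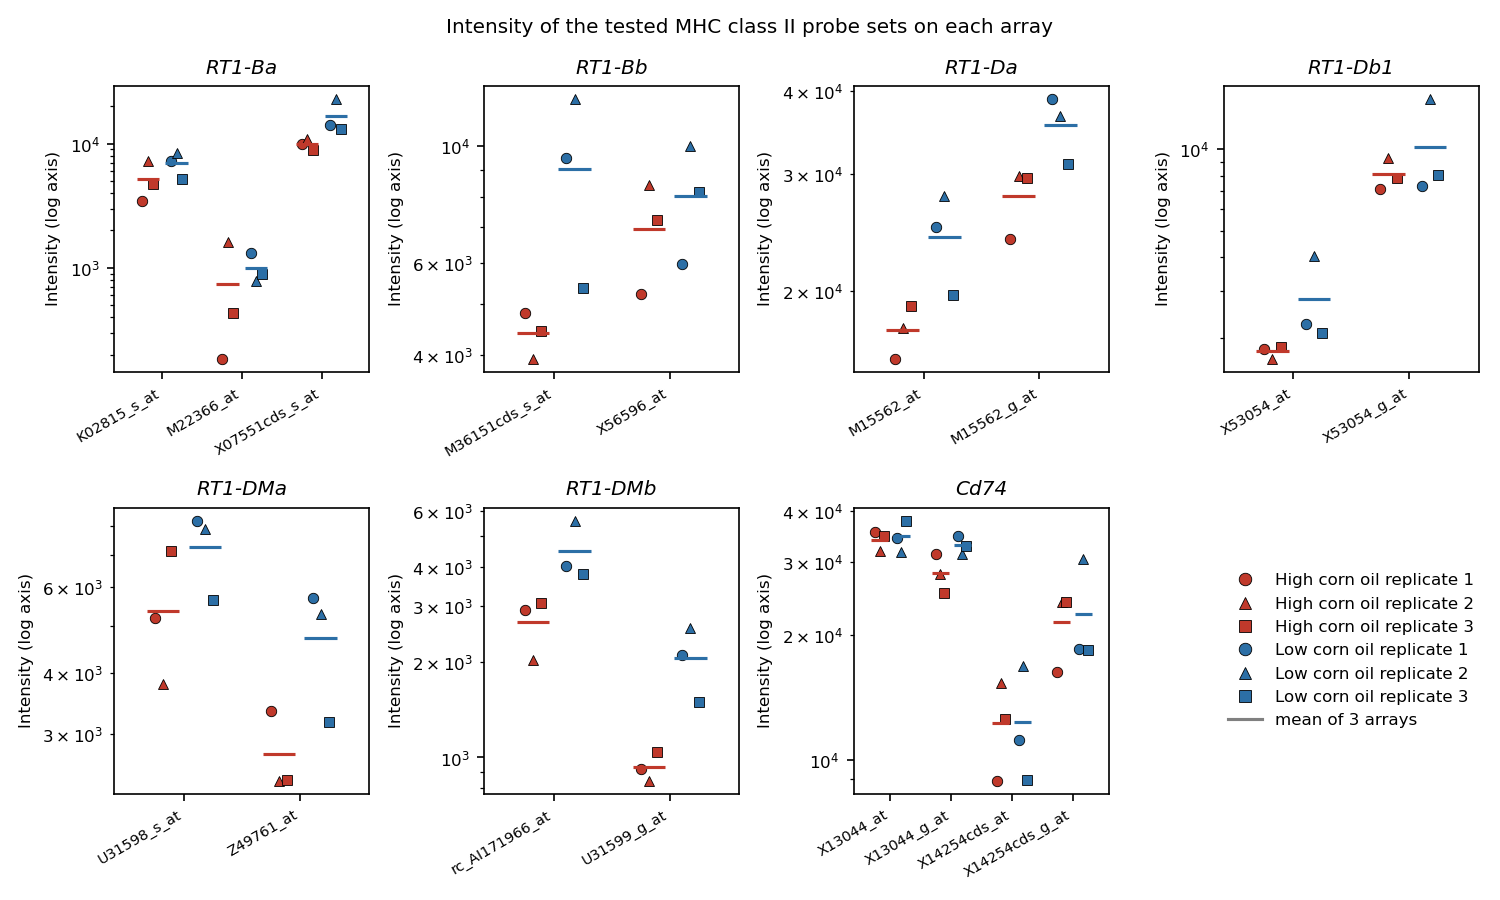
Intensity (log axis) of the 17 tested class II probe sets, 1 panel per gene, with the 3 high corn oil arrays in red to the left of the 3 low corn oil arrays in blue and a line at each mean. The diets separate fully for both RT1-Da and both RT1-DMb probe sets, and overlap for all 4 Cd74 probe sets.

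Among the antigen-binding chains, RT1-Da gave the same result on both of its probe sets, which were made from a single accession. RT1-Da encodes the alpha chain of the RT1.D molecule. On M15562_at it had 15797, 17592 and 18939 units in high corn oil arrays, against 24965, 27752 and 19708 in low corn oil arrays. On M15562_g_at it had 23941, 29805 and 29545 units in high corn oil arrays, against 38896, 36660 and 31017 in low corn oil arrays. On both, every high corn oil array was below every low corn oil array, with low corn oil replicate 3 the nearest to the high group. The log2 differences were -0.45 ± 0.17 (SE) and -0.35 ± 0.15, with limma adjusted p-values of 0.480 and 0.501.

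RT1-Db1, the beta chain partner, was lower on one probe set with separate groups and overlapped on the other. On X53054_at it had 1822, 1681 and 1864 units in high corn oil arrays, against 2270, 4041 and 2102 in low corn oil arrays, a log2 difference of -0.55 ± 0.26 (limma adjusted p = 0.505). On X53054_g_at it had 7127, 9273 and 7842 units in high corn oil arrays, against 7322, 15365 and 8039 in low corn oil arrays, a difference of -0.26 ± 0.28 (adjusted p = 0.708). On both probe sets low corn oil replicate 2 was far above the other arrays, and without it the differences were -0.27 and 0.07. The sources used here do not say how far these probe sets tell RT1-Db1 from related beta chain genes.

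RT1-Ba, the alpha chain of RT1.B, was lower with separate groups on 1 probe set and overlapped on the other 2. On X07551cds_s_at it averaged 9877 ± 1020 units (SD, n = 3) in high corn oil arrays and 16727 ± 5330 in low corn oil arrays. The single high corn oil arrays read 9880, 10895 and 8855, against 14185, 22852 and 13143 for low corn oil, with no overlap. The log2 difference was -0.71 ± 0.23 (limma adjusted p = 0.462), and -0.47 without low corn oil replicate 2.

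On K02815_s_at RT1-Ba read 3474, 7274 and 4756 units in high corn oil arrays and 7227, 8346 and 5208 in low corn oil arrays, a log2 difference of -0.45 ± 0.29 (limma adjusted p = 0.560). Leaving out single arrays moved it between -0.72 (high corn oil replicate 2 left out) and -0.20 (high corn oil replicate 1 left out). High corn oil replicate 2 was also the highest of all 6 arrays on the dim M22366_at, at 1614 units, while high corn oil replicates 1 and 3 read 186 and 432 and low corn oil arrays 1320, 790 and 899. That difference was -0.68 ± 0.58 (adjusted p = 0.647), and the same arrays left out in turn gave -1.34 and -0.16.

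RT1-Bb, the beta chain of RT1.B, had the largest difference among the antigen-binding chains on 1 of its 2 tested probe sets. On M36151cds_s_at it had 4824, 3941 and 4453 units in high corn oil arrays, against 9452, 12253 and 5362 in low corn oil arrays. The groups did not overlap, and low corn oil replicates 1 and 2 stood well above the rest. The log2 difference was -0.94 ± 0.29 (limma adjusted p = 0.462), or a ratio of means of 0.488.

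On X56596_at RT1-Bb had 5223, 8421 and 7232 units in high corn oil arrays and 5955, 9984 and 8166 in low corn oil arrays, a log2 difference of -0.20 ± 0.25 (limma adjusted p = 0.747). The groups overlapped there, and replicate 2 was the highest array of each diet. Leaving out replicate 1 or 2 of high corn oil changed the difference to -0.011 or -0.35, and leaving out replicate 1 or 2 of low corn oil to -0.40 or -0.030. Class II genes are highly polymorphic between rat strains, and the sources used here do not say which allele each probe set was designed on or how well it binds the ACI allele. A further 3 RT1-Bb probe sets were too dim to test. M36151cds_i_at was at or below 0 on all 6 arrays. M15358cds_at read -188, -260 and -557 in high corn oil arrays and 46.2, 22.0 and -157 in low corn oil arrays, so that the high corn oil values were all lower. U65217_i_at went the other way, with -18.8, -19.1 and 44.6 in high corn oil arrays, all above the -61.8, -89.5 and -234 of low corn oil arrays.

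The DM chains, which load peptide, were lower under the high diet on all 4 tested probe sets, with a median log2 difference of -0.72, against -0.45 over the 9 probe sets of the antigen-binding chains and -0.03 over the 4 of Cd74. RT1-DMb had the largest difference of all tested class II probe sets. On U31599_g_at it had 921, 845 and 1042 units in high corn oil arrays, against 2108, 2561 and 1501 in low corn oil arrays. The groups did not overlap, although the low corn oil arrays were spread more widely, with means of 936 ± 99.5 units under high corn oil and 2057 ± 532 under low corn oil (SD, n = 3 each). The log2 difference was -0.99 ± 0.23 (limma adjusted p = 0.462), and it stayed between -1.19 and -0.83 when any single array was left out.

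On rc_AI171966_at, from another accession, RT1-DMb had 2928, 2035 and 3064 units in high corn oil arrays, against 4036, 5587 and 3793 in low corn oil arrays. The groups again did not overlap, and the log2 difference was -0.71 ± 0.22 (limma adjusted p = 0.462). A further RT1-DMb probe set, U31599_at, had a mean of 212 units and was not tested. Its values were 321, -299 and -391 in high corn oil arrays and 565, 708 and 367 in low corn oil arrays.

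RT1-DMa, the alpha chain of DM, was lower with partial overlap. On Z49761_at it had 3354, 2412 and 2421 units in high corn oil arrays, against 5701, 5278 and 3183 in low corn oil arrays, where only low corn oil replicate 3 fell within the high range. Its log2 difference was -0.73 ± 0.26 (limma adjusted p = 0.480). On U31598_s_at it had 5186, 3800 and 7108 units in high corn oil arrays and 8204, 7882 and 5654 in low corn oil arrays, a difference of -0.45 ± 0.26 (adjusted p = 0.533) that came to -0.23 or -0.67 when high corn oil replicate 2 or 3 was dropped. High corn oil replicate 2 was the lowest array on all 4 DM probe sets.

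Cd74, the invariant chain, did not pass the test on any of its 4 probe sets, and the diets overlapped on each. On X13044_at it had 35597, 31909 and 34706 units in high corn oil arrays and 34449, 31769 and 37804 in low corn oil arrays, a log2 difference of -0.02 ± 0.13 (limma adjusted p = 0.949). On X13044_g_at it had 31479, 28143 and 25353 units in high corn oil arrays and 34811, 31431 and 32829 in low corn oil arrays, a difference of -0.22 ± 0.14 (adjusted p = 0.542). On X13044_g_at the overlap was narrow, with only high corn oil replicate 1 just above the lowest low corn oil array, and the difference was between -0.30 and -0.15 when single arrays were left out.

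The other Cd74 accession gave a wider spread within each diet. On X14254cds_at the values were 8920, 15336 and 12587 units in high corn oil arrays and 11198, 16905 and 8958 in low corn oil arrays, a log2 difference of 0.01 ± 0.28 (limma adjusted p = 0.992). On X14254cds_g_at they were 16291, 24042 and 24121 in high corn oil arrays and 18489, 30571 and 18427 in low corn oil arrays, a difference of -0.05 ± 0.25 (adjusted p = 0.948). Whether the diet difference of Cd74 is unlike that of the RT1 genes was not tested, since the probe sets share the same 6 rats.

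**Figure D2:**
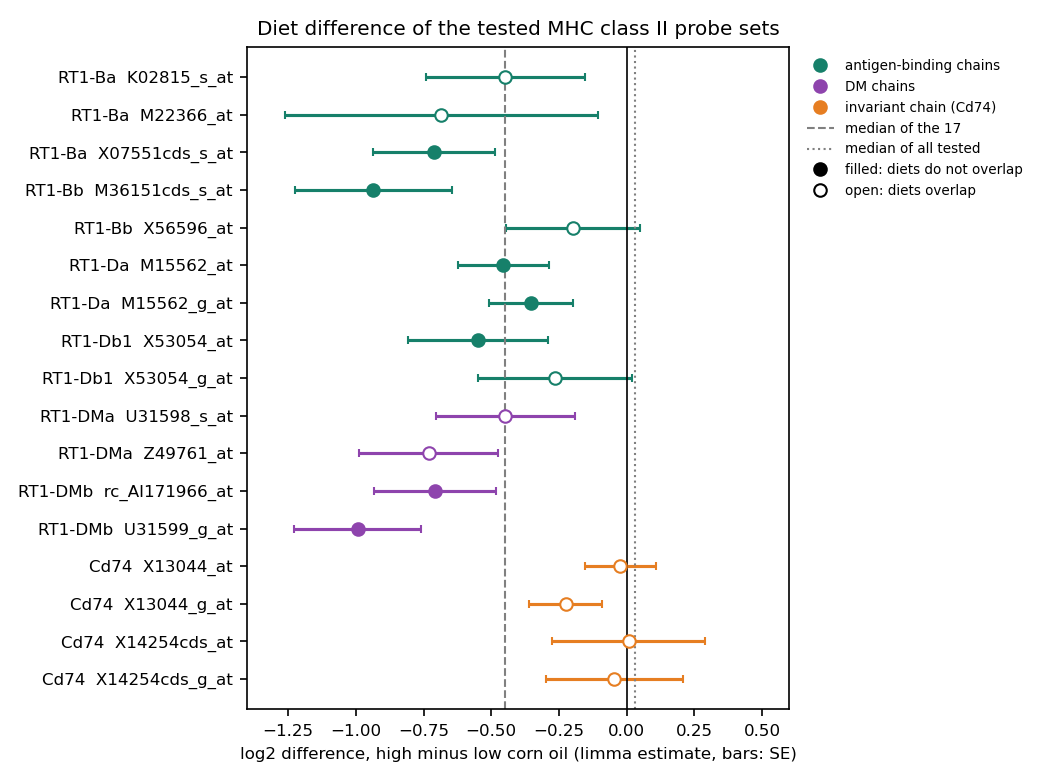
Log2 difference, high minus low corn oil, of the 17 tested class II probe sets (limma estimate with SE), coloured by role and filled where the diets do not overlap. The antigen-binding and DM chains all lie below 0, from -0.99 to -0.20, while the Cd74 probe sets lie between -0.22 and 0.01.

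The size of the class II difference was uneven across the arrays. Measured from the mean of the low corn oil arrays, the 9 probe sets of the antigen-binding chains averaged -0.76, -0.24 and -0.53 on the log2 scale in high corn oil replicates 1, 2 and 3, and -0.04, 0.32 and -0.27 in low corn oil replicates 1, 2 and 3. Low corn oil replicate 3 was thus slightly below high corn oil replicate 2. The 4 DM probe sets averaged -0.61, -0.99 and -0.56 in high corn oil arrays, all below the 0.11, 0.25 and -0.36 of low corn oil arrays. The Cd74 probe sets averaged -0.21, 0.04 and -0.04 in high corn oil arrays and -0.06, 0.20 and -0.13 in low corn oil arrays.

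Within the 3 arrays of higher spike-in signal the median class II difference was -0.67, with 16 of 17 probe sets lower. Within the 3 of lower signal it was -0.12, with 13 of 17 lower. The corresponding medians over all tested probe sets were 0.02 and 0.01. U31599_g_at of RT1-DMb was at -1.20 in the set of higher signal and at -0.60 in the other on the log2 scale, and rc_AI171966_at at -0.67 and -0.57. M15562_at of RT1-Da was at -0.73 in the set of higher signal and at -0.11 in the other, and M36151cds_s_at of RT1-Bb at -1.13 and -0.34. In 4 probe sets the difference was below 0 in the set of higher signal and above 0 in the other. These were X14254cds_at of Cd74 (-0.62 in the set of higher signal and 0.62 in the other), X14254cds_g_at of Cd74 (-0.54 and 0.38), K02815_s_at of RT1-Ba (-1.13 and 0.17) and X53054_g_at of RT1-Db1 (-0.56 and 0.084). M22366_at of RT1-Ba was at -1.79 and -0.049, and X13044_at of Cd74, at 0.11 and -0.18, turned the opposite way. Each set holds only 1 array of 1 diet, so these values carry no test, and the closing section gives the fit with spike-in level as a block. The part of the GAPDH ratio, which was also lowest in low corn oil replicate 3, was not tested.

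**Figure D3:**
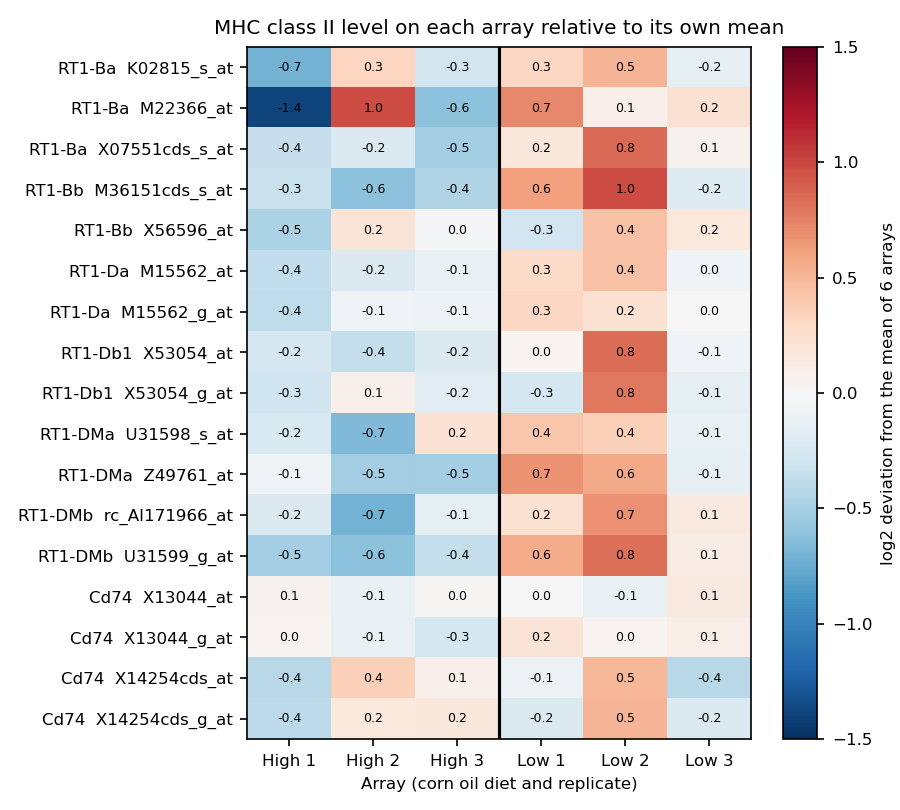
Log2 deviation of each tested class II probe set on each array from its own mean over the 6 arrays, with high corn oil arrays to the left of the black line and low corn oil arrays to the right. Low corn oil replicate 2 is the highest array for 11 of 17 probe sets, and high corn oil replicate 1 or 2 the lowest for 14.

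Coordination over the arrays was described by the correlation of log2 values for every pair of tested probe sets, 136 pairs in all, of which 122 joined different genes. Pearson's r was above 0 for 115 pairs, with a median of 0.51 (median Spearman's rho 0.43), and at least 0.8 for 30. The same counts for pairs over all tested probe sets were not computed. Whether class II pairs went together more than other pairs on these arrays therefore cannot be judged. In an exact permutation test with both directions counted, whose smallest possible p over 6 arrays is 0.00278, 26 pairs were under 0.05 before adjustment and 0 after Benjamini-Hochberg adjustment over the 136 (smallest adjusted p 0.0944). With 2 arrays left out of each pair, those farthest from the median of its first-listed probe set, the median r was 0.36. After each diet's mean was subtracted, it was 0.38, with 93 pairs above 0. This median was not tested and has no counterpart over all tested probe sets either.

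By role, the pairs ran as follows. All 36 pairs among the antigen-binding chains had r above 0 (median 0.67, range 0.11 to 0.94), as did all 6 pairs among the DM chains (median 0.82, range 0.70 to 0.93). Between the antigen-binding and DM chains 32 of 36 pairs were above 0, with a median of 0.64. Pairs within a role include probe sets of the same gene. All these probe sets were lower under the high diet, which by itself raises r over the 6 arrays. After each diet's mean was subtracted, the median r was 0.56 among the antigen-binding chains, 0.72 among the DM chains and 0.38 between them. The closest pair of all was M36151cds_s_at of RT1-Bb with U31599_g_at of RT1-DMb, at r = 0.96 and rho = 0.94 (exact permutation p = 0.00556, adjusted p = 0.0944), and at 0.83 without low corn oil replicates 1 and 2. U31599_g_at, rc_AI171966_at and X53054_at of RT1-Db1 put the 6 arrays in the same order. With Cd74 the median r was 0.40 for the antigen-binding chains (25 of 36 pairs above 0) and 0.15 for the DM chains (14 of 16). These became 0.14 and 0.03 after each diet's mean was subtracted. None of these medians was tested against another.

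The Cd74 probe sets disagreed with each other. X13044_at and X14254cds_at went in opposite directions over the arrays, at r = -0.94 and rho = -0.89 (exact permutation p = 0.0167 for r, adjusted p = 0.189), and at -0.90 without low corn oil replicates 2 and 3. The 2 probe sets from accession X14254 went together (r = 0.93), but the 2 from X13044 had r = 0.27 (-0.12 after quantile normalization). Among the pairs of Cd74 with RT1 genes, the highest r was that of X14254cds_g_at with X53054_g_at of RT1-Db1 (0.86, exact permutation p = 0.0333, adjusted p = 0.216), and it was 0.60 with replicate 2 of each diet left out. X13044_at was below 0 with 13 of its 16 partners, and the other 120 pairs had a median r of 0.58, a split made after the values were seen. X13044_at varied little, between 31769 and 37804 units over all 6 arrays, so its order of arrays rests on small differences.

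**Figure D4:**
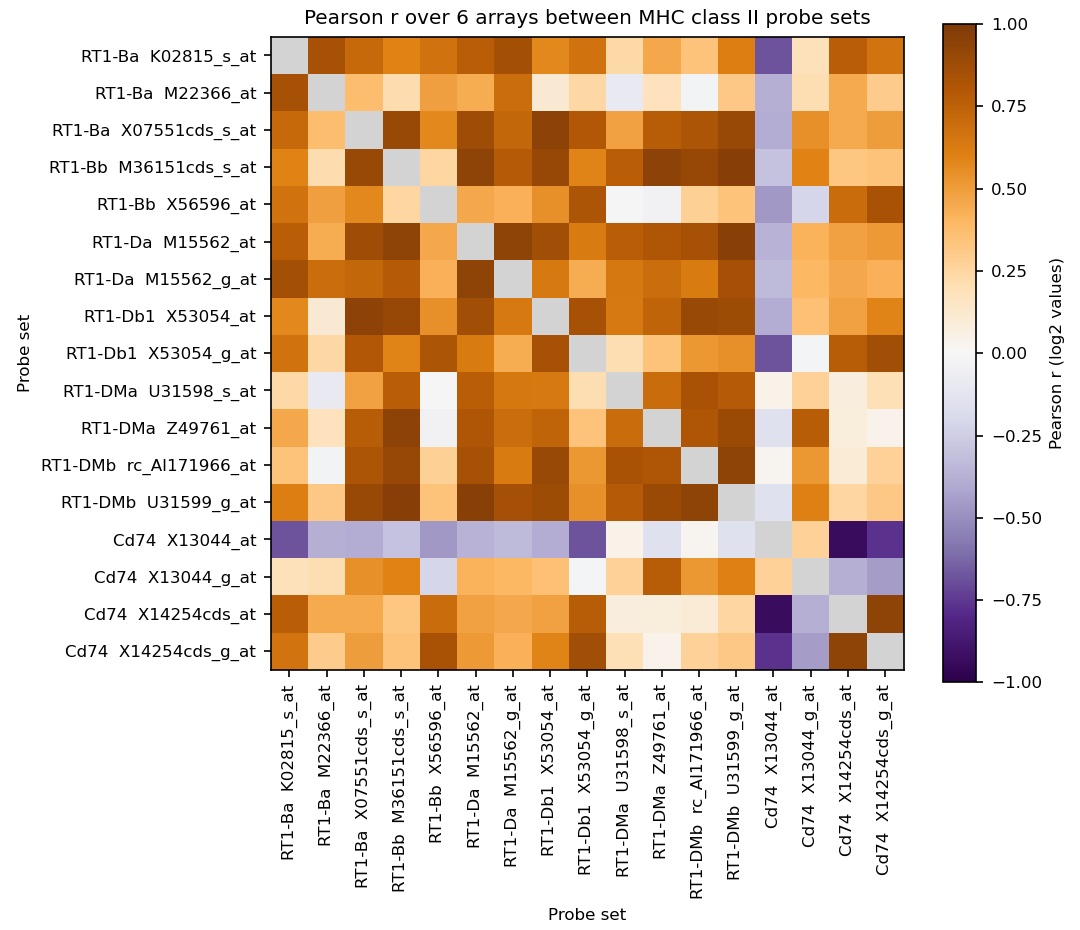
Pearson's r over the 6 arrays between the log2 values of every 2 tested class II probe sets, with the diagonal in grey. The RT1 probe sets are mostly positive with each other, and X13044_at of Cd74 is negative with 13 of 16 others.

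Other listed genes of class II processing also had estimates below 0, some of them smaller than their SE, and none passed the test. Of 18 listed genes of class II loading and further class II chains, 9 had a probe set and 7 were tested, all 7 lower under the high diet, with a median log2 difference of -0.31 and 0 past limma's adjusted threshold. Over all 3162 tested genes, each by its brightest probe set, 44.2% were lower and the median was 0.05. Ctss, cathepsin S, which trims the invariant chain in antigen-presenting cells, had 9133, 10055 and 7635 units in high corn oil arrays, against 10615, 12065 and 10606 in low corn oil arrays, with no overlap and a difference of -0.31 ± 0.15 (adjusted p = 0.508). Ctsb, a lysosomal cysteine protease, was at -0.43 ± 0.16 (adjusted p = 0.480) and Cst3, the cysteine protease inhibitor cystatin C, at -0.32 ± 0.14 (adjusted p = 0.501), both with separate groups. The DO alpha chain gene RT1-DOa, whose product restrains DM, was at -0.21 ± 0.45 (adjusted p = 0.862), and RT1-DOb was too dim to test. Ctse was at -0.22 ± 1.06 (adjusted p = 0.941), with single arrays between 778 and 14470 units and overlap. Ctsd, the aspartic protease cathepsin D, had 46596, 23737 and 26761 units in high corn oil arrays and 39799, 41177 and 40370 in low corn oil arrays, with overlap and a difference of -0.38 ± 0.25 (adjusted p = 0.556). Without high corn oil replicate 1, the highest array, it passed at -0.68 ± 0.11 (limma adjusted p = 0.0375). In that setting 214 of all 5244 tested probe sets passed, and 0 class II probe sets did.

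Regulators of class II transcription went both ways. Of 25 listed, 16 had a probe set and 11 were tested, of which 7 were lower and 4 higher (median -0.20), with 0 past the threshold. Irf1, an interferon-induced transcription factor that acts on the inducible Ciita promoter, had 1486, 2204 and 1299 units in high corn oil arrays, against 3232, 3204 and 2998 in low corn oil arrays, a difference of -0.89 ± 0.22 (adjusted p = 0.462). The groups were separate by a wide margin. Jak1, a kinase of the interferon-gamma receptor, was at -0.71 ± 0.41 (adjusted p = 0.538) and the receptor chain gene Ifngr1 at -0.34 ± 0.22 (adjusted p = 0.556), both with overlap. Rfx5, the DNA-binding subunit of the X box complex, was at 0.26 ± 0.23 (adjusted p = 0.652), and the NF-Y subunit genes Nfya, Nfyb and Nfyc at -0.26 ± 0.44, -0.44 ± 0.40 and -0.10 ± 0.13, with separate groups for Nfyc alone. Both Ifng probe sets were too dim to test.

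The class I pathway loads peptides from the cytosol and is also inducible by interferon. Of 13 tested genes of class I and its loading 10 were lower and 3 higher, with a median of -0.19 and 0 past the threshold. B2m, the class I light chain, was at -0.26 ± 0.15 (adjusted p = 0.531) and Psme1, a proteasome activator subunit, at -0.27 ± 0.14 (adjusted p = 0.517), while the chaperone gene Calr was higher in all high corn oil arrays at 0.36 ± 0.17 (adjusted p = 0.505). Of 4 tested genes of T cell contact 2 were lower and 2 higher, with a median of 0.17. Ctla4, an inhibitory receptor of T cells, was at 0.61 ± 0.24 (adjusted p = 0.487) with separate groups, Cd86, its ligand on antigen-presenting cells, at 0.52 ± 0.42 (adjusted p = 0.637), and the adhesion molecule gene Icam1 at -0.29 ± 0.28 (adjusted p = 0.685).

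Markers of macrophages and fibroblasts were also mostly lower in high corn oil arrays, again short of the threshold. Of 9 tested macrophage markers 8 were lower, 6 with separate groups, with a median of -0.63 and 0 past the threshold. Over all tested probe sets 6.71% had separate groups in that direction, and the share counted by gene was not computed. C1qb, a complement subunit gene made mainly by macrophages, had 5657, 5158 and 5869 units in high corn oil arrays, against 10977, 8200 and 7267 in low corn oil arrays, a difference of -0.63 ± 0.18 (adjusted p = 0.462). Aif1 was at -0.76 ± 0.22 and C1qc at -0.75 ± 0.22 (adjusted p = 0.462 for each). Not all markers took part. Itgam was the 1 that was higher, at 0.22 ± 0.38 with overlap. The lysozyme gene Lyz2 was at -0.08 ± 0.24 and the endotoxin receptor gene Cd14 at -0.07 ± 0.36, both with overlap. The summed intensity of the list was 38968 to 61266 in high corn oil arrays and 58195 to 65213 in low corn oil arrays. The list's mean log2 deviation from the low corn oil level was -0.53, -0.41 and -0.49 in high corn oil arrays and 0.23, -0.10 and -0.13 in low corn oil arrays. Csf1r, the receptor that defines the lineage, was too dim to test.

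All 7 tested fibroblast markers were lower, with a median of -0.63, 6 with separate groups (6.71% of all tested probe sets) and 0 past the threshold. Thy1 was at -0.82 ± 0.23, Pdgfra at -0.97 ± 0.28 and Dcn at -0.60 ± 0.19 (adjusted p = 0.462 for each). Dcn passed without high corn oil replicate 1, at -0.77 (limma adjusted p = 0.0428), where 214 of all 5244 tested probe sets did. Their summed intensity was 57466 to 78434 in high corn oil arrays and 89997 to 125568 in low corn oil arrays. Among general leukocyte genes 3 of 4 tested were lower, with Cd48 at -0.72 ± 0.21 (adjusted p = 0.462), Cd53 at -0.58 ± 0.28 (adjusted p = 0.508) and Ptprc, by its brightest probe set, at 0.31 ± 0.38 (adjusted p = 0.750).

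Of 5 tested T and NK cell genes 1 was lower and 4 were higher, with a median of 0.01. Lck was at -0.66 ± 0.35, Cd8b at 0.68 ± 0.40 and Il2rb at 0.11 ± 0.24, all with overlap (adjusted p = 0.523, 0.539 and 0.859). Other carriers of class II were poorly covered, with 1 of 12 listed B cell markers tested (Cd79b, 0.61 ± 0.39, adjusted p = 0.555) and 0 of 10 dendritic cell markers. The T and NK cell, B cell and dendritic cell genes therefore give little on those cells. Of 8 tested luminal epithelial markers 4 were lower and 4 higher, with a median of 0.03. The keratin gene Krt8 was at -0.04 ± 0.16, Msmb at -0.65 ± 0.28 (adjusted p = 0.501), Epcam at 0.32 ± 0.14 (adjusted p = 0.501) and Pbsn at -1.19 ± 0.57 (adjusted p = 0.505). Sbp and Tgm4, from the same list, were at 0.18 ± 1.26 and 0.13 ± 0.74, both with overlap. Their single arrays were uneven, between 1891 and 53056 units for Sbp and between 5749 and 41267 for Tgm4. Without high corn oil replicate 1 Pbsn and Msmb passed, at -1.94 and -0.98 (limma adjusted p = 0.00591 and 0.0255), among 214 of all 5244 tested probe sets. Both tested basal markers were higher (Krt5 0.27 ± 0.13 with separate groups, adjusted p = 0.505, and Krt14 0.14 ± 0.19), and 1 of 3 endothelial markers was lower, with a median of 0.28. Of the genes listed for glands nearby, Scgb2a1 and Scgb1d2 (ventral lobe list) were at -0.31 ± 0.58 and -0.39 ± 0.92, with overlap. Semg1 and Svs4 (seminal vesicle list) were at -0.54 ± 0.34 and -0.02 ± 0.21, also with overlap. Semg1 had 80278, 30689 and 36240 units in high corn oil arrays, with replicate 1 far above the others as for Pbsn and Msmb. Which gland its RNA came from was not tested. The part of these cell types in the class II result was not tested.

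**Figure D5:**
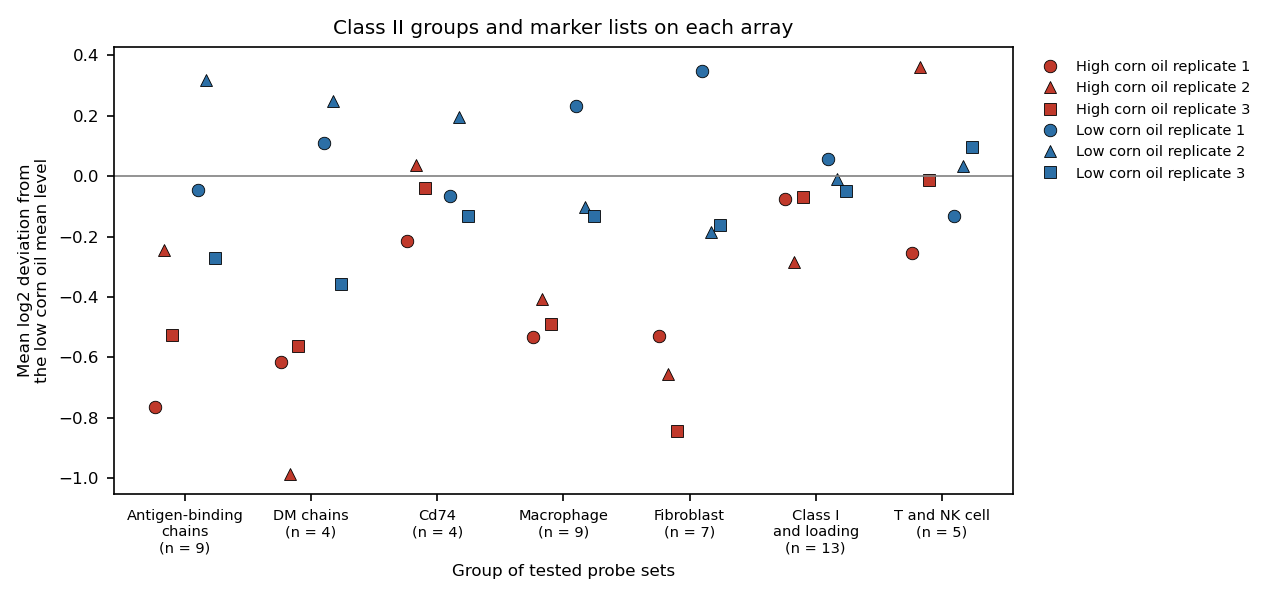
Mean log2 deviation from the low corn oil mean level on each array for the tested probe sets of the antigen-binding chains, the DM chains and Cd74, and for the tested genes of 4 marker lists, with high corn oil arrays in red to the left of low corn oil arrays in blue. The diets separate for the DM chains, the macrophage markers and the fibroblast markers. They also separate, narrowly, for class I and loading (highest high corn oil array -0.068, lowest low corn oil array -0.048). They overlap by a small margin for the antigen-binding chains.

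The genes whose pattern over the 6 arrays was most like that of class II were found by Pearson's r with the mean of the 17 standardized probe sets, among 4296 other named and tested probe sets. This is a description over 6 arrays, and with so many probe sets high values arise easily. The highest was Cirbp, a cold-inducible RNA-binding protein gene, at r = 0.99, with 409, 497 and 467 units in high corn oil arrays and 599, 792 and 547 in low corn oil arrays. Next was Dbp, a transcription factor of the circadian clock's output, at r = 0.98, with 3381, 4519 and 3918 units in high corn oil arrays and 6224, 7964 and 5372 in low corn oil arrays, and at r = 0.89 on its other probe set. Nr2f2, the nuclear receptor COUP-TFII of stroma and veins, was at r = 0.95, as were Chn1 and Septin1. Grik5, Pvalb, Tpm3, Ube2b and Hsp90ab1 followed between 0.93 and 0.91, and other probe sets of Chn1, Tpm3, Ube2b and Hsp90ab1 lay between -0.02 and 0.58. The most opposite patterns were those of Nrg2 (-0.98), Pdap1 (-0.97), Mrpl44 (-0.97), Timm29 (-0.96) and Kcnc4 (-0.96), and the other probe set of Pdap1 was at 0.44.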

How the data were processed

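Per the labels' protocols, Trizol RNA (6 ug) was made into biotin-labelled cRNA and hybridized to short-oligonucleotide rat arrays. The deposited intensity values are linear, 1 per probe set and array, and had been scaled by the authors: without the highest and lowest 2% the mean was 2503 to 2504 on every array. The submitters' processing notes name MAS5 alone; its version and settings are not given in the sources used here. From 18.6% to 23.1% of an array's values were at or below 0, so how background was subtracted is unknown, and no detection calls were used.

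Gene symbols came from the platform annotation, updated by gene identifier to GRCr8 (6985 of 7006 probe sets with 1 gene). Probe sets with several genes were not named. Values below 0 were set to 0 and transformed as log2(value + 156.1), where 156.1 is the median of all values divided by 4. Probe sets with a mean of at least the 40th percentile (343 units) were tested with limma 3.58.1 in R 4.3.3 (intensity trend, no covariate, both directions, Benjamini-Hochberg, threshold 0.05), after a test on simulated data. With 3 rats per diet, the number of arrays limits the precision. Marker lists count each gene by its brightest probe set. From each list the 3 genes with the smallest p were named. Genes beyond those, such as Rfx5, the NF-Y genes, RT1-DOa, Ctse, Itgam, Lyz2, Cd14, Ctsd, Krt8, Sbp and Tgm4, were named after their values were seen. The members and lists were chosen with earlier results of these data known. Alternatives changed the pseudocount, filter, normalization, trend, array weights, blocks, the group of high corn oil replicate 3 and the handling of values below 0, and left out each array.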

Additional observations from a re-analysis of the deposited data

How the results depend on the processing

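The median class II difference, -0.45, was lower than 0 in every setting run. It was -0.34 if high corn oil replicate 3 was treated as a low array, between -0.61 and -0.30 when any 1 array was left out, -0.67 within the arrays of higher spike-in signal and -0.12 within those of lower signal. With spike-in level as a block it was -0.42. No setting brought a class II probe set past limma's adjusted threshold, and the nearest were array weights (smallest adjusted p 0.0604) and leaving out high corn oil replicate 1 (0.0914). Over all probe sets, limma called 9 of 8740 with no filter. When single arrays were left out it called 0 to 214 of 5244, the 214 without high corn oil replicate 1. In that setting 5 genes of the lists passed (0 to 5 over the single arrays left out): Ctsd, Dcn, Msmb, Pbsn and Semg1. The cause was not tested. Of 288 values of single class II probe sets under the alternatives, 274 kept their sign and stayed short of the threshold, and 14 changed sign, all in Cd74 except 1 in RT1-Db1. With quantile normalization X13044_at was at 0.0123 and X14254cds_at at -0.0108, with array weights they were at 0.0296 and -0.13, and with high corn oil replicate 3 treated as low X14254cds_at was at -0.0466. With single arrays left out, X13044_at ranged from -0.0842 to 0.0407, X14254cds_at from -0.20 to 0.26, X14254cds_g_at from -0.17 to 0.19 and X53054_g_at from -0.46 to 0.0651. The median pairwise r was 0.50 after quantile normalization.

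The titles number the rats 1 to 3 in both diets, but same-numbered arrays did not deviate together (r = -0.05, -0.20 and 0.18 across tested probe sets), so the numbers were not taken as pairs. With a replicate block limma called 0 probe sets (554 at an unadjusted p under 0.05, against 522 without it), and the median class II difference was -0.45. Detection calls were not used here, so for the dim probe sets M22366_at, U31599_at and the 3 untested ones of RT1-Bb presence cannot be judged.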
